A study of Arabidopsis thaliana with 39 samples.

Results

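The nuclear genes for proteins of the plastid ribosome described here were chosen by name and role, with earlier results of these data known but with no measured value in the rule, and number 39 of the 33110 genes counted. They comprise 24 genes of the large subunit (PRPL) and 15 of the small subunit, of which 9 are PRPS and 6 are PSRP genes. The reference annotation (RefSeq, TAIR10.1) names PSRP5 (AT3G56910) and PSRP6 (AT5G17870) as 50S proteins, which goes against their place among the small subunit genes, so values with both counted as large are also given. PSRP1 (AT5G24490) is annotated only as a 30S ribosomal protein. RPL12-B (AT3G27840) and PSRP3-2 (AT5G15760) are related genes outside the set, and RPL12-B did not pass the filter on low counts. PRPL5 and PRPS20 each overlap another gene on the same strand, so their counts are less certain. Other members, among them PRPL1, PRPL10, PRPL15, PRPL18, PRPS6, PSRP1 and PSRP3, overlap a gene on the opposite strand. The study does not say whether reads were counted by strand, so these counts may be less certain too. The plastid-encoded ribosomal protein genes were not analysed here.

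The plastid ribosome translates the small set of messages that the chloroplast genome still encodes, among them the large subunit of Rubisco and core proteins of the photosystems. Its rRNAs and some of its proteins are encoded in the plastid, whereas the other proteins are nuclear genes whose products are made in the cytosol and imported. Like its bacterial relatives it has a large (50S) and a small (30S) subunit, and it carries additional plastid-specific ribosomal proteins (PSRP). In leaves these genes are known to be most active while chloroplasts are being built in young, growing tissue.

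Rosettes of Arabidopsis thaliana were sampled at 30, 37 and 44 days after sowing (DAS). The genotypes were *slim1-cr*, in which CRISPR/Cas9 removed part of *SLIM1* (AT1G73730), a transcription factor of sulfur limitation, the overexpressors *35S::SLIM1 #17* and *#25*, which carry the coding sequence behind the constitutive 35S promoter, and Col-0. The empty vector line *EV* was sampled at 30 DAS only, so that there were 13 groups of 3 libraries and 39 libraries in all. Overexpressor seeds were T2 and had been selected on hygromycin, and *slim1-cr* and each overexpressor is a single line. Stalks and reproductive organs were removed according to the study. Age cannot be told apart from the day of harvest.

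Libraries held 38.4 to 46.2 M counts. *SLIM1* was at 0.669 to 2.59 CPM (counts per 1000000 counts of a library, with TMM factors over all libraries) in *slim1-cr*, at 141 to 356 CPM in *#17*, at 82.3 to 325 CPM in *#25*, and at 18.1 to 22.9 CPM in Col-0 and *EV*, so that no library went against its label. The libraries farthest from the others of their group in the 39 genes were *#17* replicate 3 at 37 DAS, *#25* replicate 2 at 37 DAS and Col-0 replicate 1 at 44 DAS. Differences were tested with edgeR's quasi-likelihood F test and Benjamini-Hochberg adjustment over all genes, "called" means an adjusted p under 0.05, and all 39 genes passed the filter in every fit.

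The level of the plastid ribosome genes was lower at later ages, lowest in the overexpressors and highest in *slim1-cr* at 44 DAS, with PSRP1 as the exception described further on. At 30 DAS the 39 genes together took 1.34% ± 0.0787 of the normalised counts in *slim1-cr*, 1.28% ± 0.145 in *#17*, 1.21% ± 0.0537 in *#25*, 1.17% ± 0.131 in *EV* and 1.35% ± 0.0585 in Col-0 (SD, n = 3 each). At 37 DAS the share was 1.11% ± 0.0713 in *slim1-cr*, 0.589% ± 0.269 in *#17*, 0.862% ± 0.185 in *#25* and 0.893% ± 0.0719 in Col-0. At 44 DAS it was 0.983% ± 0.159 in *slim1-cr*, 0.296% ± 0.0338 in *#17*, 0.249% ± 0.0194 in *#25* and 0.617% ± 0.121 in Col-0. The libraries of both overexpressors at 44 DAS, at 0.231% to 0.316%, lay below every other library, and *slim1-cr* at 44 DAS, at 0.806% to 1.12%, lay above Col-0 of that day, at 0.544% to 0.757%. In whole rosettes, less RNA per cell and fewer cells that express these genes cannot be told apart.

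**Figure D1:**
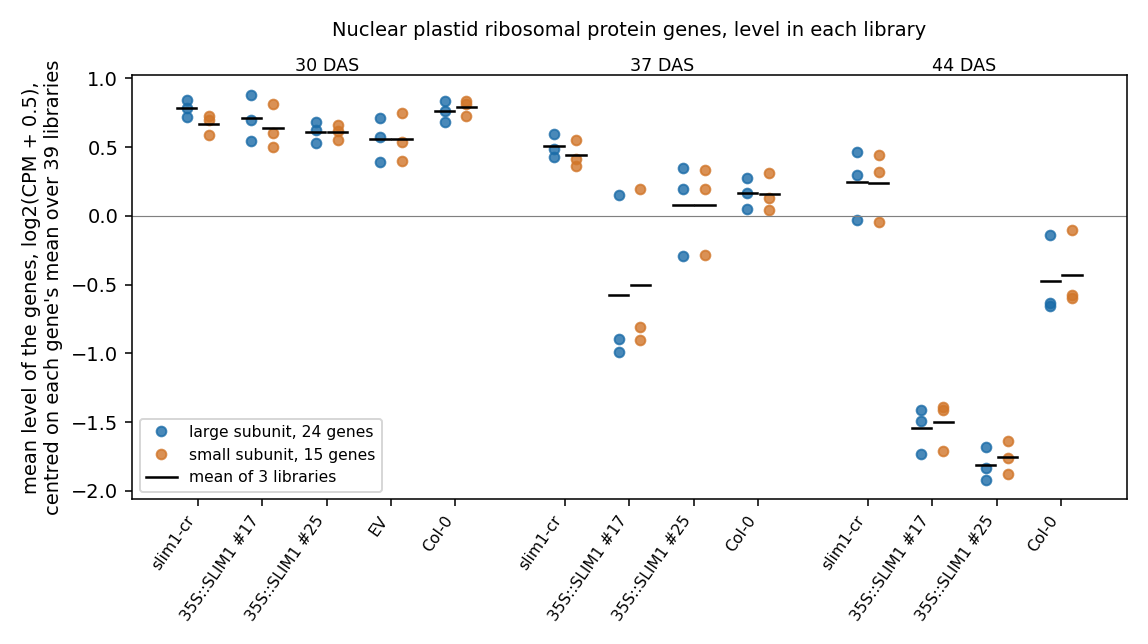
Mean level of the 24 large and 15 small subunit genes in each of the 39 libraries (y axis, log2(CPM + 0.5), each gene centred on its mean over all libraries), by genotype and age. Points are libraries and bars are means of 3 libraries. The points of both subunits move together, and the mean of all 39 genes is -1.79 in *35S::SLIM1 #25* at 44 DAS and 0.77 in Col-0 at 30 DAS.

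Large and small subunit genes kept nearly the same proportion over the 13 groups. Each gene's log2(CPM + 0.5) was centred on its mean over the 39 libraries, and the mean of the small subunit genes was taken from that of the large. The difference was 0.11 ± 0.02 in *slim1-cr*, 0.07 ± 0.02 in *#17*, 0.0021 ± 0.0214 in *#25*, -0.0031 ± 0.0385 in *EV* and -0.03 ± 0.03 in Col-0 at 30 DAS (SD, n = 3 each). It was 0.06 ± 0.01 in *slim1-cr*, -0.07 ± 0.03 in *#17*, 0.00048 ± 0.00963 in *#25* and 0.0042 ± 0.0360 in Col-0 at 37 DAS, and 0.0066 ± 0.0230 in *slim1-cr*, -0.04 ± 0.06 in *#17*, -0.06 ± 0.01 in *#25* and -0.05 ± 0.01 in Col-0 at 44 DAS. The group means thus spanned 0.18, with a pooled SD within groups of 0.03, while the level of all 39 genes spanned 2.56, with a pooled SD of 0.24.

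At 30 DAS all 3 libraries of *slim1-cr*, at 0.08 to 0.13, and all 3 of *#17*, at 0.05 to 0.09, lay above the 3 of Col-0, at -0.05 to -0.0015. Without PSRP1, an alternative chosen after seeing the data, the span of the group means was 0.15. It ran from -0.09 ± 0.04 in Col-0 at 30 DAS to 0.06 ± 0.01 in *slim1-cr* at 44 DAS, with 0.05 ± 0.04 in *slim1-cr* at 30 DAS. With PSRP5 and PSRP6 counted as large the span was 0.19. The balance is a description of these genes and was not tested.

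**Figure D2:**
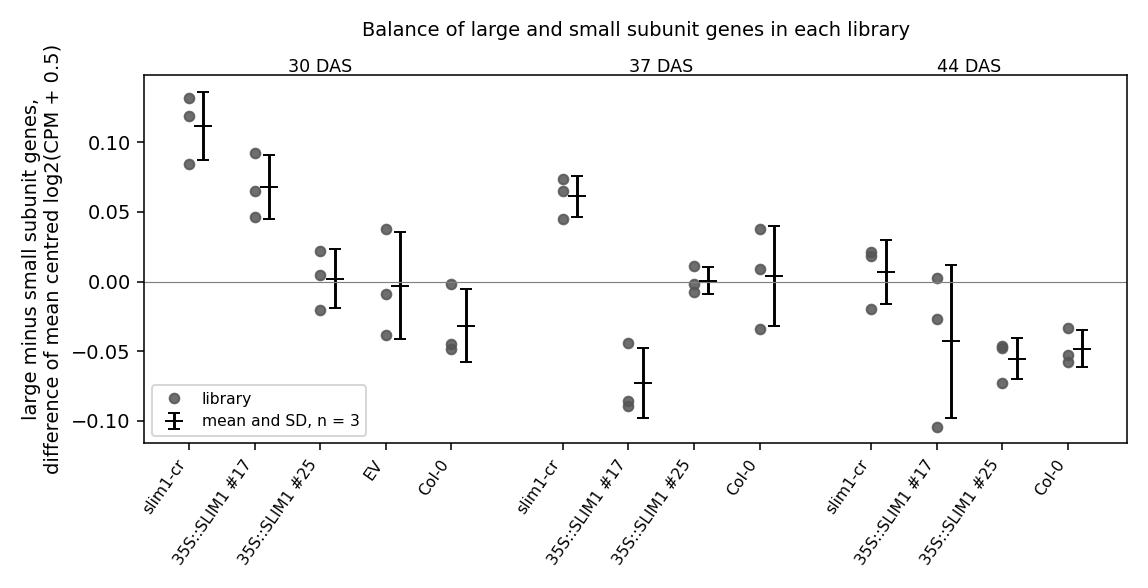
Large minus small subunit genes in each library (y axis, difference of mean centred log2(CPM + 0.5)), by genotype and age, with the mean and SD of 3 libraries beside the points. The highest mean is 0.11 in *slim1-cr* at 30 DAS and the lowest -0.07 in *35S::SLIM1 #17* at 37 DAS, a span of 0.18.

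Per kilobase of exon the genes lay within a narrow band. In Col-0 at 30 DAS large subunit genes ranged from 141 to 473 CPM per kilobase with a median of 347, and small subunit genes from 218 to 494 with a median of 298. The medians at 44 DAS were 255 and 204 in *slim1-cr*, 68.1 and 63.9 in *#17*, 53.8 and 53.8 in *#25*, and 155 and 128 in Col-0, large before small in each pair. The order within the band changed. PRPL1 had rank 1 of 39 in *#25* at 44 DAS and rank 15 in Col-0 at 30 DAS, and PSRP1 had rank 5 and rank 36. In the opposite direction PRPL15 had rank 32 in *#25* at 44 DAS and rank 5 in Col-0 at 30 DAS, PRPL34 rank 31 and rank 10, and PRPL21 rank 21 and rank 2.

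The upstream sequences of the genes were read from TAIR10.1 to show which known motifs they hold. Searched on both strands from 250 bases before to 50 bases after the annotated start, site II elements (TGGGCC or TGGGCT), known from promoters of ribosomal protein and cell cycle genes, were in 19 of the 39 genes (48.7%), 9 large and 10 small, in 30 of 41 genes of the cytosolic ribosome, and in 21.7% of 27443 promoters. The telo box (AAACCCTA) was in 5 of 39 (12.8%), in 23 of the 41 cytosolic genes, and in 6.22% of all promoters. GAGAC, the core letters of the sulfur-responsive element, was in 11 of 39 (28.2%) and in 32.8% of all promoters. CACGTG was in 4 of 39 (10.3%, 7.68% of all promoters) and CCAATC in 5 of 39 (12.8%, 12.3% of all promoters). None of these motifs contains another, and a match is a description of the sequence only.

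The 150 bases before the start are shown for 3 genes with site II elements and for 3 without, in capitals where a telo box or a site II element stands on either strand. PSRP4 holds 1 telo box and 3 site II elements, PRPS10 has 3 site II elements, and PRPL15, the gene with the largest fall in *#25*, has 1. PRPL12-A and PRPL12-C are shown because they are near copies that lie close together on chromosome 3. PSRP1 is shown because its level parted from the rest.
PSRP4 (chr2:15980698-15980847, plus strand): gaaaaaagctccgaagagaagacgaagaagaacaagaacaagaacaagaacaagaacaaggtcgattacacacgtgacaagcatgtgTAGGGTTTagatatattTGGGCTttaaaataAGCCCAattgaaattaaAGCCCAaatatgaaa
PRPS10 (chr3:4221667-4221816, minus strand): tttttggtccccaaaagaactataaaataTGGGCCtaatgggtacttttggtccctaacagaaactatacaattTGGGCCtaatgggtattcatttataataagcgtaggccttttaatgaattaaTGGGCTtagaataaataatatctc
PRPL15 (chr3:9492656-9492805, minus strand): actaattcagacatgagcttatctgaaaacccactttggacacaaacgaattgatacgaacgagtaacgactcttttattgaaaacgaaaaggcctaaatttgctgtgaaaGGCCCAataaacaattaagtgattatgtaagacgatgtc
PRPL12-A (chr3:10318305-10318454, plus strand): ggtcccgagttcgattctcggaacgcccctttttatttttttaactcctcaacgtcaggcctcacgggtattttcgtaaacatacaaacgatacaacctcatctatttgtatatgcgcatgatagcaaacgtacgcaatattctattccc
PRPL12-C (chr3:10324638-10324787, plus strand): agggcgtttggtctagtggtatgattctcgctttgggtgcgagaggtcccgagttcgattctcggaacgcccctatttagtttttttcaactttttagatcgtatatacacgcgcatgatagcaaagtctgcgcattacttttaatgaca
PSRP1 (chr5:8365451-8365600, plus strand): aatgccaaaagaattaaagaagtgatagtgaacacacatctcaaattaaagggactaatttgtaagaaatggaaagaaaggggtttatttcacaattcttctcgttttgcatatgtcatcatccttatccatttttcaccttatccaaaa
PRPL12-A and PRPL12-C share an identical run of 30 bases here, ggtcccgagttcgattctcggaacgcccct, and the annotation places a tRNA gene upstream of each, at AT3G27825 and AT3G27845.

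At 44 DAS nearly all genes of the plastid ribosome were lower in the overexpressors than in Col-0. In *#17* 37 of 39 were called lower and 0 higher (23 of 24 large, 14 of 15 small), with a median log2 fold change (log2FC) of -1.07, against 20.6% of the 20499 genes tested. In *#25* all 39 were called lower, with a median of -1.29, against 23.2% of all genes. The medians of large and small subunit genes were -1.07 and -1.06 in *#17* and -1.28 and -1.31 in *#25*, while the median of all genes was -0.01 in *#17* and 0.01 in *#25*. The libraries did not overlap for 37 genes in *#17* (27.3% of all genes lay below) and for all 39 in *#25* (31.9%). Leaving out any single library of the groups compared kept 37 called in *#17* and 37 to 39 in *#25*.

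The largest falls among large subunit genes at 44 DAS were those of PRPL15, PRPL34 and PRPL21. PRPL15 (AT3G25920, chromosome 3, 9491055 to 9492655), whose bacterial counterpart L15 is a core protein of the large subunit, had 56.5, 52.7 and 64.9 CPM in *#17* and 42.7, 36.5 and 43.7 CPM in *#25*, against 261, 164 and 179 CPM in Col-0. All 6 overexpressor libraries lay far below the lowest Col-0 library. By edgeR its log2FC in *#17* was -1.78 (SE 0.19), with an adjusted p of 9.4e-05. That in *#25* was -2.26 (SE 0.20), with an adjusted p of 2.1e-05. PRPL34 (AT1G29070, chromosome 1, 10149791 to 10151407), a small basic protein of the large subunit, was at 40.3, 34.04 and 40.5 CPM in *#17* and 30.8, 27.0 and 31.1 CPM in *#25*, against 174, 117 and 97.6 CPM in Col-0. Its log2FC in these lines was -1.74 (SE 0.19) and -2.09 (SE 0.20). For PRPL21 (AT1G35680, chromosome 1, 13208683 to 13210428) the values were 64.8, 49.2 and 67.2 CPM in *#17* and 48.5, 46.4 and 54.0 CPM in *#25*, against 235, 156 and 162 CPM in Col-0, with log2FC of -1.60 (SE 0.19) and -1.86 (SE 0.19). The groups did not overlap for any of the 3 genes.

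Among small subunit genes PRPS21, PRPS6 and PSRP1 fell most. PRPS21 (AT3G27160, chromosome 3, 10017321 to 10019442), which in mutants is known for sensitivity to glucose, had 39.5, 32.6 and 44.7 CPM in *#17* and 31.2, 29.6 and 36.7 CPM in *#25*, against 178, 110 and 118 CPM in Col-0. Its log2FC was -1.79 (SE 0.19) and -2.02 (SE 0.19). PRPS6 (AT1G64510, chromosome 1, 23954800 to 23956304), a protein of the platform in the bacterial small subunit, was at 44.7, 36.8 and 38.6 CPM in *#17* and 40.1, 30.0 and 38.4 CPM in *#25*, against 142, 112 and 98.7 CPM in Col-0. The log2FC was -1.54 (SE 0.20) in *#17* and -1.67 (SE 0.20) in *#25*. Every overexpressor library lay below every Col-0 library for both genes.

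Some genes moved less. PRPL1, the protein of the mobile L1 stalk in bacteria, had the smallest fall called in *#17*, at -0.62 (SE 0.13, adjusted p = 0.0044), and the smallest of the 39 in *#25*, at -0.66 (SE 0.13). It stood at 231, 194 and 209 CPM in *#17* and 193, 196 and 218 CPM in *#25*, against 370, 323 and 287 CPM in Col-0. PRPS1, which binds mRNA in bacteria, had -0.66 and -0.88, and PRPL24 had -0.74 and -0.87. The genes not called in *#17* were PRPL12-C and PSRP3, with adjusted p of 0.31 and 0.18 and log2FC of -0.30 (SE 0.22) and -0.42 (SE 0.24). Both were called for *#25*, at -0.68 (SE 0.22) and -0.84 (SE 0.24). Between *#25* and *#17* at 44 DAS 0 of 39 genes were called by edgeR, 2 had an unadjusted p under 0.05 and DESeq2 called 0, while 0.0% of all genes were called lower and 0.00976% in either direction, and all 39 log2FC were negative, from -0.48 to -0.04.

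**Figure D3:**
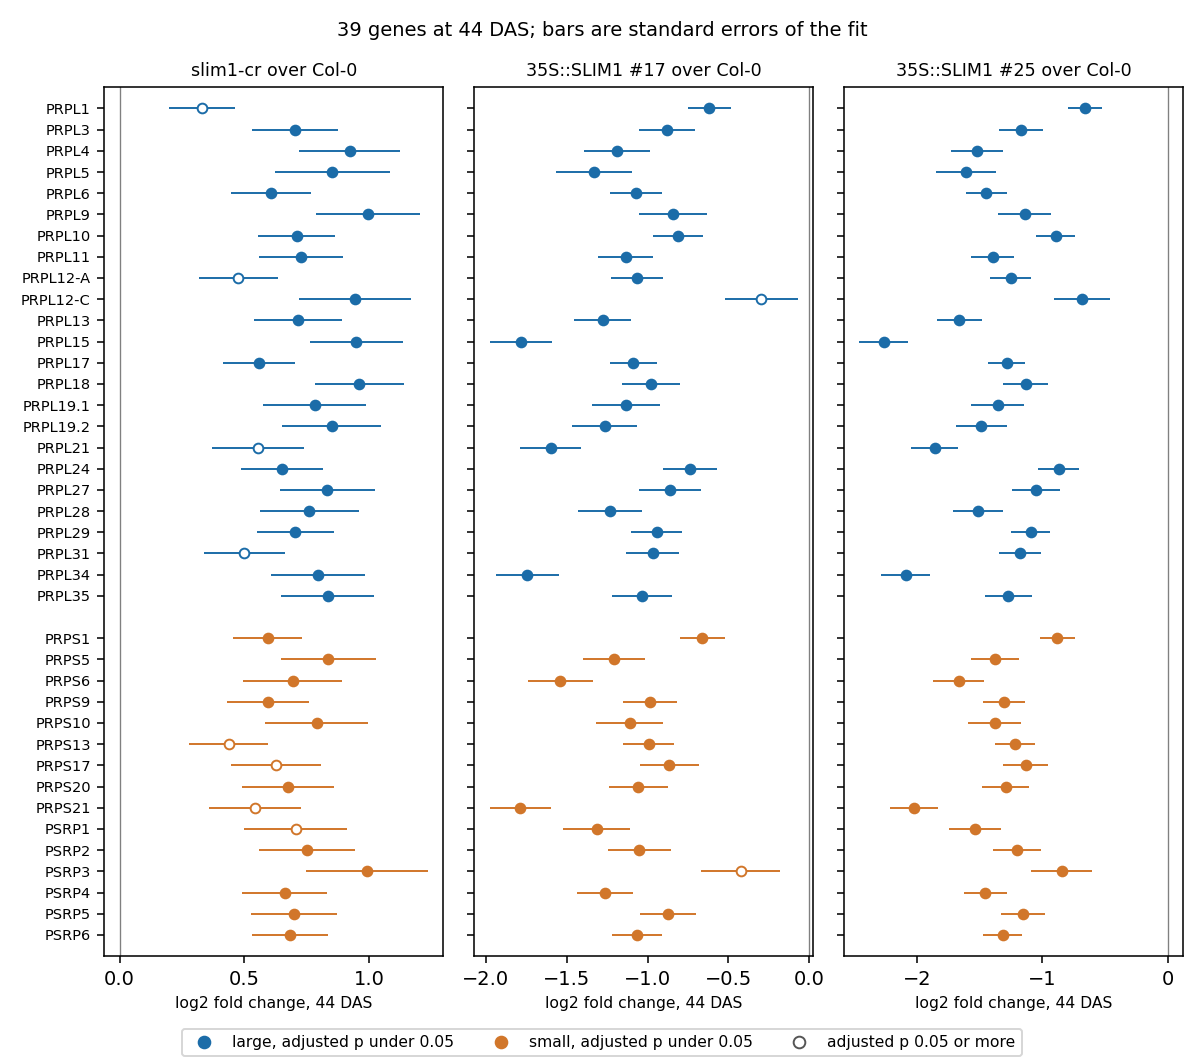
Log2 fold change of each of the 39 genes over Col-0 at 44 DAS (x axis) in *slim1-cr*, *35S::SLIM1 #17* and *#25*, with the standard error of the fit. Large subunit genes stand above small ones, and open symbols missed an adjusted p of 0.05. All values are positive in *slim1-cr*, up to 1.00 for PRPL9, and all are negative in the overexpressors, down to -2.26 for PRPL15 in *#25*.

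In *slim1-cr* at 44 DAS the same genes were higher than in Col-0. Of 39 genes 31 were called higher and 0 lower (20 of 24 large, 11 of 15 small), with a median log2FC of 0.71, against 6.21% of all genes called higher. All 39 had a positive log2FC, from 0.33 for PRPL1 to 1.00 for PRPL9, and 30 lay above Col-0 without overlap (17.2% of all genes). The calls are near the threshold. Adjusted p by edgeR ran from 0.036 to 0.0496 among the called genes. The count was 0 when Col-0 replicate 2 or 3 or *slim1-cr* replicate 1 or 3 was left out. It was 0 in a fit of these 6 libraries alone, and 39 with DESeq2. Calls over all genes, in either direction, moved likewise. They numbered 2087 in the main fit, 17 to 35 in those leave-outs, 12 in the 6 libraries alone and 4944 with DESeq2. The median of the 39 genes stayed between 0.58 and 0.88 in the fits that left out a library. The genes not called were PRPL1, PRPL12-A, PRPL21, PRPL31, PRPS13, PRPS17, PRPS21 and PSRP1.

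PRPL9, PRPL18 and PRPL15 rose most among large subunit genes of *slim1-cr*. PRPL9 (AT3G44890, chromosome 3, 16386395 to 16388723), whose bacterial counterpart reaches far out of the ribosome, had 156, 122 and 201 CPM in *slim1-cr*, against 108, 67.9 and 68.5 CPM in Col-0 (log2FC 1.00, SE 0.21, adjusted p = 0.036). PRPL18 (AT1G48350, chromosome 1, 17867102 to 17868432), which binds 5S rRNA in bacteria, had 307, 230 and 348 CPM in *slim1-cr*, against 183, 139 and 141 CPM in Col-0 (log2FC 0.96, SE 0.18). For PRPL15 the values were 400, 310 and 438 CPM in *slim1-cr*, against 261, 164 and 179 CPM in Col-0 (log2FC 0.95, SE 0.19). Replicate 2 of *slim1-cr* was the lowest and replicate 1 of Col-0 the highest of its group for each of these genes, and the groups did not overlap.

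Among small subunit genes PSRP3, PRPS5 and PSRP2 rose most. PSRP3 (AT1G68590, chromosome 1, 25757404 to 25758411), which has relatives in cyanobacteria, was at 123, 85.9 and 137 CPM in *slim1-cr*, against 77.3, 50.2 and 49.4 CPM in Col-0 (log2FC 0.99, SE 0.24, adjusted p = 0.039). PRPS5 (AT2G33800, chromosome 2, 14300672 to 14302496), a protein of the decoding region in bacteria, was at 379, 276 and 407 CPM in *slim1-cr*, against 254, 172 and 179 CPM in Col-0 (log2FC 0.84, SE 0.19). PSRP2 (AT3G52150, chromosome 3, 19342014 to 19343466), which has RNA recognition motifs, was at 165, 137 and 209 CPM in *slim1-cr*, against 132, 82.9 and 93.4 CPM in Col-0 (log2FC 0.75, SE 0.19). The groups were apart for all 3 genes, by little for PSRP2.

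The remaining PSRP genes followed the module. PSRP4 (AT2G38140, chromosome 2, 15980848 to 15981612), a relative of a small protein of thermophilic bacteria, had 168, 133 and 180 CPM in *slim1-cr*, 46.8, 36.5 and 44.4 CPM in *#17*, 35.8, 33.6 and 40.9 CPM in *#25* and 129, 93.8 and 86.9 CPM in Col-0 at 44 DAS. PSRP5 (chromosome 3, 21069411 to 21070356) had 214, 179 and 257 CPM in *slim1-cr*, 78.9, 62.7 and 78.5 CPM in *#17*, 57.0, 58.6 and 62.7 CPM in *#25* and 169, 118 and 120 CPM in Col-0. PSRP6 (chromosome 5, 5907589 to 5908464) had 144, 125 and 166 CPM in *slim1-cr*, 41.8, 38.6 and 49.98 CPM in *#17*, 37.1, 34.5 and 36.5 CPM in *#25* and 110, 89.2 and 76.1 CPM in Col-0. In each of the 3 the overexpressors lay below and *slim1-cr* above Col-0 without overlap, and the log2FC of PSRP4, PSRP5 and PSRP6 were 0.66, 0.70 and 0.68 for *slim1-cr*, -1.26, -0.87 and -1.07 for *#17*, and -1.45, -1.16 and -1.31 for *#25*.

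PSRP1 is a relative of the bacterial factors that bind and silence idle ribosomes, and is known from spinach to bind the decoding region without being a fixed part of the subunit. Its level (chromosome 5, 8365601 to 8367460) did not follow age as that of the others did. At 30 DAS it had 361, 273 and 156 CPM in *slim1-cr*, 202, 231 and 319 CPM in *#17*, 455, 480 and 372 CPM in *#25*, 446, 314 and 276 CPM in *EV* and 273, 238 and 338 CPM in Col-0. At 37 DAS it had 275, 342 and 257 CPM in *slim1-cr*, 268, 207 and 476 CPM in *#17*, 405, 276 and 402 CPM in *#25* and 360, 304 and 214 CPM in Col-0. At 37 DAS the groups overlapped. At 30 DAS all *#25* libraries lay above those of *slim1-cr*, *#17* and Col-0, and the other groups overlapped. By edgeR *#25* missed the threshold over Col-0 (log2FC 0.64, adjusted p = 0.19) and over *#17* (log2FC 0.81, adjusted p = 0.15), and it was not tested against *slim1-cr*.

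At 44 DAS PSRP1 parted by genotype. It had 698, 480 and 616 CPM in *slim1-cr*, 188, 136 and 122 CPM in *#17*, 131, 118 and 129 CPM in *#25* and 450, 293 and 376 CPM in Col-0. All *slim1-cr* libraries lay above and all overexpressor libraries below the 3 of Col-0, and the log2FC over Col-0 was 0.71 for *slim1-cr* (SE 0.20, edgeR adjusted p = 0.051), -1.32 for *#17* (SE 0.21, padj 0.00077) and -1.54 for *#25* (SE 0.21, padj 0.00025). Within *slim1-cr* it rose by 1.04 (SE 0.28, adjusted p = 0.0041) between 37 and 44 DAS, the only member called higher in any age step, where 21.4% of all genes were called higher. Its mean CPM at 44 DAS was 227% of that at 30 DAS in *slim1-cr*, 59.3% in *#17*, 28.8% in *#25* and 132% in Col-0. Over the other 38 genes this percentage ran from 42.1 to 99.5 in *slim1-cr*, from 11.7 to 44.8 in *#17*, from 8.55 to 43.4 in *#25* and from 19.95 to 68.7 in Col-0.

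**Figure D4:**
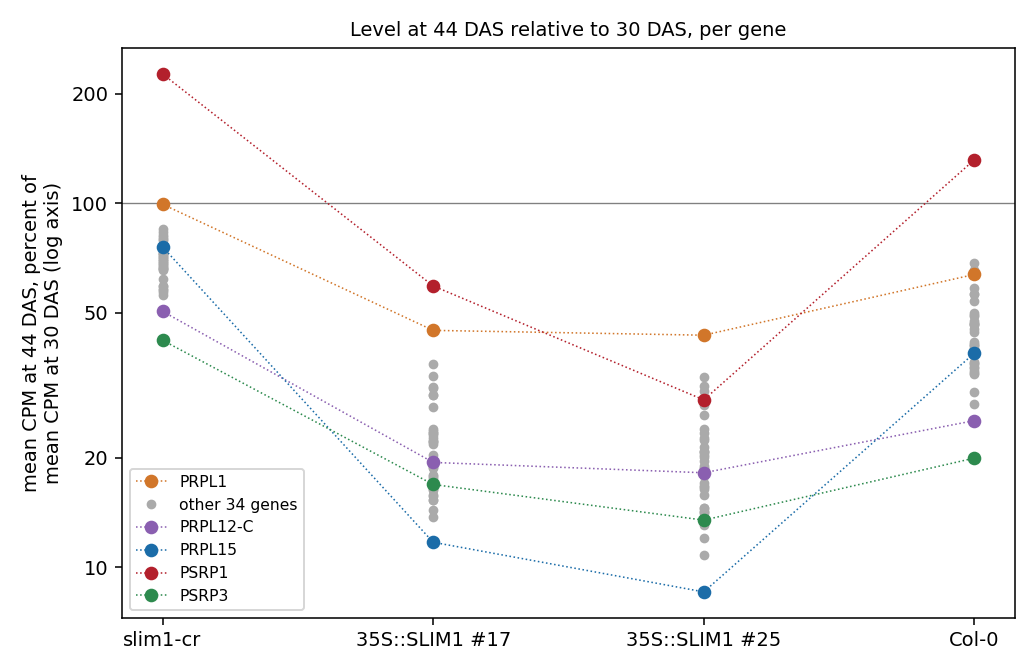
Mean CPM at 44 DAS as a percent of the mean CPM at 30 DAS (y axis, log scale) for each of the 39 genes in *slim1-cr*, *35S::SLIM1 #17*, *35S::SLIM1 #25* and Col-0. Dotted lines join the points of 5 named genes. PSRP1 lies above 100 in *slim1-cr* (227) and Col-0 (132), and PRPL15 is the lowest point in *#17* (11.7) and *#25* (8.55).

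With age the genes fell in Col-0 in both steps. Between 30 and 37 DAS 27 of 39 were called lower and 0 higher (median log2FC -0.61, 16.0% of all genes called lower), and between 37 and 44 DAS 28 of 39 (median -0.61, 26.8%). Leaving out Col-0 replicate 3 at 30 DAS gave 16 calls in the first step, and leaving out replicate 2 or 3 at 37 DAS gave 11 and 16. In the second step, leaving out replicate 1 at 37 DAS gave 16, and leaving out replicate 2 or 3 at 44 DAS gave 11 and 12. PSRP3 and PRPL12-C, which differed least between *#17* and Col-0 at 44 DAS, were the ones that fell most in Col-0 between 30 and 44 DAS, to 19.95% and 25.3% of the 30 DAS level. Both comparisons use the same Col-0 libraries of 44 DAS, so a low value there gives both results. In *#17* PSRP3 and PRPL12-C stood at 16.9% and 19.4% of the 30 DAS level, within the range of the other genes. PSRP3-2 (AT5G15760), the second Arabidopsis gene for PSRP3, had log2FC of -0.08 in *#17* and -0.17 in *#25* over Col-0 at 44 DAS, neither called, and fell by 0.55 between 37 and 44 DAS in Col-0.

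In *slim1-cr* the steps were smaller. Between 30 and 37 DAS 0 of 39 genes were called by edgeR (median log2FC -0.24, 5.6% of all genes called lower), 4 had an unadjusted p under 0.05, DESeq2 called 1, and 2 were called without replicate 3 at 30 DAS, although 27 lay lower at 37 DAS without overlap (12.3% of all genes). Between 37 and 44 DAS PRPL10, PRPL12-C and PSRP3 were called lower, by 0.65, 0.58 and 0.74 (20.2% of all genes), and with PSRP1 the 4 calls became 2 without replicate 2 and 9 without replicate 3 at 44 DAS. Between 30 and 44 DAS the overexpressors fell further than Col-0, but the first step of *#25* was no larger than that of Col-0 (median -0.61). In *#17* 38 genes were called lower between 30 and 37 DAS (median -1.19, 29.9% of all genes) and 38 between 37 and 44 DAS (median -1.04, 26.8%). The exceptions were PSRP1 in the first step and PRPL1 in the second. Without *#17* replicate 3 at 37 DAS the second step had 29 calls and a median of -0.60. In *#25* 16 were called lower between 30 and 37 DAS (median -0.50, 13.8%), and all 39 between 37 and 44 DAS (median -1.82, 36.5%). The 16 calls became 9 and 6 without replicate 1 or 3 at 30 DAS, and 26, 1 and 9 without replicate 1, 2 or 3 at 37 DAS.

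The fall from Col-0 over time was itself tested in the fit of all libraries. Between 30 and 44 DAS the difference from Col-0 became lower for 35 of 39 genes in *#17* (median change -1.002, 15.1% of all genes) and for 36 in *#25* (median -1.13, 18.5%), and higher for 7 in *slim1-cr* (median 0.74, 4.35%). Leaving out a library gave 20 to 37 calls in *#17*, with 20 without Col-0 replicate 1 and 22 without *#17* replicate 2 at 44 DAS, 31 to 37 in *#25*, and 0 to 20 in *slim1-cr*, where only leaving out *slim1-cr* replicate 3 at 30 DAS gave 7 again. There the counts were 20 without Col-0 replicate 1 and 19 without *slim1-cr* replicate 2 at 44 DAS, and 0 to 2 without any other library of the groups compared. The 7 genes in *slim1-cr* were PRPL1, PRPL10, PRPL11, PRPL12-A, PRPL12-C, PSRP3 and PSRP6, with changes from 0.64 to 1.08. For each of these 7 genes every *EV* library at 30 DAS also lay below every Col-0 library. PRPL12-A, for example, had 377, 330 and 374 CPM in *EV*, against 541, 491 and 475 CPM in Col-0. The part of the Col-0 level at 30 DAS in these changes was not tested. The bacterial counterparts of PRPL10, PRPL11 and PRPL12 form the stalk that recruits translation factors, but a grouping of the 7 genes was not tested.

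At 37 DAS the values of *#17* depended on a single library. In *#17* 3 genes were called lower than Col-0, PRPL10, PRPS1 and PSRP6 (median log2FC of all 39 -0.63, 17.0% of all genes called lower), while 31 had an unadjusted p under 0.05 and DESeq2 called 22. By edgeR 38 were called when *#17* replicate 3 was left out (median -1.10) and 0 when any other library of *#17* or Col-0 was. Over all genes the calls in either direction were 7469 with every library and 8613 with DESeq2. They were 8983 without *#17* replicate 3 and 4937 to 6240 without another of these libraries. Its centred level of the 39 genes was 0.17, beside -0.96 and -0.86 in the other *#17* libraries, and it lay within the range of Col-0, at 0.05 to 0.29. The same library stood apart in several other measures, but not in all. Its leaf markers summed to 39438 CPM, beside 24483 and 22495 CPM in the other *#17* libraries, its dividing cell markers to 69.4 CPM, beside 40.8 and 30.5 CPM, and its cytosolic ribosome genes to 7903 CPM, beside 4947 and 5045 CPM. *SLIM1* was at 281 CPM in it, beside 356 and 355 CPM. Their part in the result was not tested. PRPL10 (AT5G13510, chromosome 5, 4341262 to 4342095) had 82.0, 83.0 and 147 CPM in *#17*, against 166, 145 and 163 CPM in Col-0. In *#25* 0 of 39 were called by edgeR (median -0.08, 9.74% of all genes), with 0 at an unadjusted p under 0.05 and 0 by DESeq2. The difference of *#25* from *#17* called 0 of 39 (3.9% of all genes called higher, 9 at an unadjusted p under 0.05, 1 by DESeq2), and 38 higher without *#17* replicate 3. Calls over all genes, in either direction, were 1674 here, and 5364 without that library.

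In *slim1-cr* at 37 DAS 0 of 39 were called by edgeR, with 0 at an unadjusted p under 0.05 and 0 by DESeq2 (median log2FC 0.33, 1.4% of all genes called higher), yet 38 of 39 had a positive log2FC and 35 lay above Col-0 without overlap (16.7% of all genes). PSRP1 was the gene with a negative value.

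At 30 DAS few genes were called. In *#25* PRPL11 and PRPL12-A were called lower than Col-0, at -0.40 and -0.44 (2.83% of all genes called lower). The count was 1 gene without Col-0 or *#25* replicate 3 and 0 without any other library of these groups. In that comparison 12 genes had an unadjusted p under 0.05, DESeq2 called 6 lower, 35 of 39 log2FC were negative (median -0.15), and 22 lay below Col-0 without overlap (19.3% of all genes). With *EV* in place of Col-0 the log2FC of PRPL12-A was 0.037 (adjusted p = 0.89). In *slim1-cr* 0 of 39 were called (2.12% of all genes lower), 11 had an unadjusted p under 0.05, DESeq2 called 2 lower, and 5 were called without *slim1-cr* replicate 3. Without that library 2455 of all genes were called in either direction, against 963 with it. In *#17* 0 were called (3.17%), 3 had an unadjusted p under 0.05 and DESeq2 called 1 lower. *EV* had 0 called of 39 and of all genes (0.0%), with 21 members at an unadjusted p under 0.05 and 1 by DESeq2, while 36 of 39 log2FC were negative (median -0.23) and 20 lay below Col-0 without overlap (8.75% of all genes). With *EV* in place of Col-0 the median of *slim1-cr* was 0.19, against -0.06 with Col-0. Between *#25* and *#17* 0 of 39 were called (0.957% of all genes lower), 4 had an unadjusted p under 0.05 and DESeq2 called 1. Plates with hygromycin and the transgene cannot be told apart from *SLIM1* level in the comparisons of the overexpressors with Col-0.

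PRPL12-A (AT3G27830, chromosome 3, 10318455 to 10319920) and PRPL12-C (AT3G27850, chromosome 3, 10324788 to 10325746) encode the stalk protein L12 and are 91.5% identical over their coding sequences, with an identical run of 257 bases, so reads could be assigned to either and their values are uncertain. PRPL12-A had 290, 248 and 298 CPM in *slim1-cr*, 105, 78.3 and 106 CPM in *#17*, 76.4, 81.5 and 92.0 CPM in *#25* and 244, 193 and 173 CPM in Col-0 at 44 DAS. PRPL12-C had 177, 144 and 211 CPM in *slim1-cr*, 71.6, 63.8 and 91.8 CPM in *#17*, 53.5, 48.9 and 68.7 CPM in *#25* and 124, 74.5 and 82.6 CPM in Col-0. The overexpressor libraries lay below Col-0 for PRPL12-A (log2FC -1.07, SE 0.16, in *#17* and -1.25, SE 0.16, in *#25*), whereas *#17* overlapped with Col-0 for PRPL12-C. In *slim1-cr* the log2FC was 0.48 for PRPL12-A, not called, and 0.94 for PRPL12-C, called. The difference between the copies was not tested.

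PRPL19.1 (AT4G17560, chromosome 4, 9780224 to 9782183) and PRPL19.2 (AT5G47190, chromosome 5, 19164184 to 19166135), which encode L19 at the subunit interface in bacteria, share 79.8% of their coding letters and no identical run over 43 bases. PRPL19.1 had 145, 110 and 173 CPM in *slim1-cr*, 37.9, 34.5 and 42.2 CPM in *#17*, 31.8, 30.2 and 34.8 CPM in *#25* and 112, 63.3 and 78.5 CPM in Col-0 at 44 DAS. PRPL19.2 had 201, 146 and 190 CPM in *slim1-cr*, 36.7, 37.4 and 50.8 CPM in *#17*, 36.0, 32.7 and 36.7 CPM in *#25* and 133, 82.8 and 86.4 CPM in Col-0. The copies had log2FC of 0.78 and 0.85 for *slim1-cr*, -1.13 and -1.26 for *#17*, and -1.36 and -1.49 for *#25*, all called.

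Other genes of plastid and cytosolic translation were described by counts and medians, to be read against the shares of all genes at 44 DAS, which were 6.21% higher in *slim1-cr*, 20.6% lower in *#17* and 23.2% lower in *#25*. At 44 DAS, of 14 plastid translation factors 6 were called higher in *slim1-cr*, 6 lower in *#17* and 8 lower in *#25*, with median log2FC of 0.41, -0.39 and -0.57. Of 24 genes for assembly and rRNA maturation of the plastid ribosome 9 were called higher in *slim1-cr*, 8 lower in *#17* and 10 lower in *#25*, with medians of 0.41, -0.32 and -0.37. Of 41 genes of the cytosolic ribosome 2 were called higher in *slim1-cr*, 0 lower in *#17* and 2 lower in *#25*, with medians of 0.59, -0.21 and -0.20. Its share of calls lay below that of all genes in each comparison. Yet all 41 had a positive log2FC in *slim1-cr*, and in each overexpressor 35 were negative and 6 positive. Between 30 and 37 DAS the 4 lists moved by similar amounts in *#17*, with medians of -1.19 for the plastid ribosome, -1.14 for the factors, -0.95 for assembly and -1.04 for the cytosolic ribosome. Between 37 and 44 DAS they were -1.04, -0.25, -0.18 and -0.30 in *#17*, but without *#17* replicate 3 at 37 DAS the median of the plastid ribosome was -0.60 there. In *#25* they were -1.82, -0.85, -0.64 and -0.79 in that step.

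**Figure D5:**
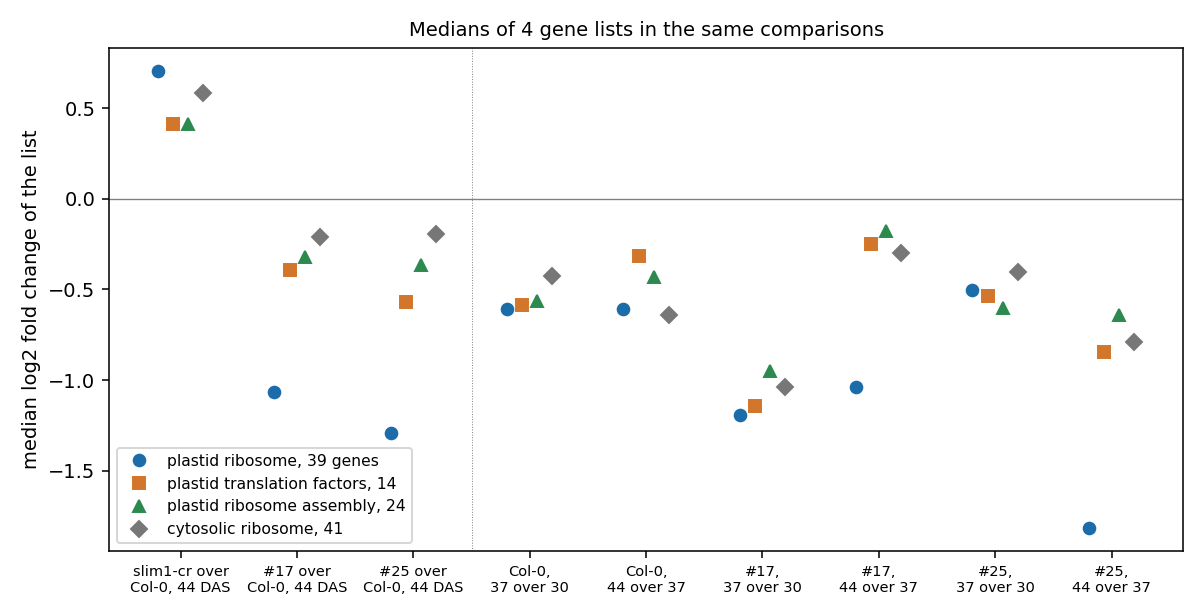
Median log2 fold change (y axis) of the 39 plastid ribosome genes and of 3 other lists in the comparisons with Col-0 at 44 DAS (left of the dotted line) and in the age steps of Col-0, *35S::SLIM1 #17* and *#25* (right). The plastid ribosome is the lowest point in both overexpressors at 44 DAS, at -1.07 and -1.29, and in the last step of *#25*, at -1.82.

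By their medians at 44 DAS the markers of dividing cells and leaf mesophyll moved in the direction of these genes, and the senescence markers in the opposite direction. Few flower organ markers were called. Of all genes at 44 DAS 6.21% were called higher in *slim1-cr*, 20.6% lower and 19.8% higher in *#17*, and 23.2% lower and 22.8% higher in *#25*. The 8 markers of dividing cells summed to 57.9 to 130 CPM in *slim1-cr*, 4.81 to 13.9 CPM in *#17*, 5.38 to 12.8 CPM in *#25* and 28.2 to 76.4 CPM in Col-0, at that age, and 0, 8 and 8 of 8 were called, lower in both overexpressors. The 5 leaf mesophyll markers, nuclear photosynthesis genes, had medians of 0.41 in *slim1-cr*, -1.49 in *#17* and -2.28 in *#25*, with 1 called higher, 4 lower and 5 lower. The 5 senescence markers had medians of -0.69, 1.32 and 2.13, with 0, 2 and 5 called higher, and summed to 44.2 to 197 CPM in *slim1-cr*, 412 to 1171 CPM in *#17*, 828 to 1454 CPM in *#25* and 88.9 to 199 CPM in Col-0. The 10 flower organ markers summed to 14.03 to 24.1 CPM in *slim1-cr*, 2.93 to 23.08 CPM in *#17*, 3.38 to 14.8 CPM in *#25* and 16.3 to 22.7 CPM in Col-0, with 0, 0 and 2 of the 9 tested called, lower in *#25*, so low levels were found although these organs had been removed. *SAG12* was at 0 in 4 of the 39 libraries, the flower genes *STK* and *SHP2* in 9 and 3, and the root gene *TIP2;3* in 15. The root genes *PYK10*, at 6.86 to 89.9 CPM, and *CO2*, at 2.68 to 72.4 CPM, were at 0 in no library. At 44 DAS the root markers summed to 52.7 to 100 CPM in *slim1-cr* and 27.7 to 111 CPM in Col-0. They summed to 14.1 to 61.0 CPM in *#17* and 14.7 to 33.4 CPM in *#25*. The part of these marker lists in the change of the ribosomal protein genes was not tested.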

How the data were processed

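Polyadenylated RNA of rosette tissue was sequenced as strand-specific paired-end reads. According to the study, the authors cleaned the reads, mapped them in CLC Genomics Workbench to TAIR10 with Araport11 and deposited whole-number counts per gene, used here as deposited. A table of the same libraries that the authors normalised by median ratios with DESeq2 (1.40.2 per the labels) was not used. Total counts were 38.4 to 46.2 M.

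Counts were tested in R 4.3.3 with edgeR 4.0.16 (filterByExpr with a minimum count of 10, TMM factors, robust quasi-likelihood F test). Genotypes were compared in one fit per age (15, 12 and 12 libraries), and age steps and changes between 30 and 44 DAS in one fit of 39 libraries. The study calls the samples biological replicates, and the sources used here do not say how many plants a sample holds. Libraries of a group differed by more than sampling noise in all 39 pairs (chi-square over degrees of freedom of 8.55 at the least), so none was merged. Values in every library are given for the 3 genes of each subunit with the largest change called without overlap in each comparison with Col-0 at 44 DAS, for called genes that moved against the median, for the PRPL12 and PRPL19 copies and for the PSRP genes. PRPL1 and PRPL10 were added after their values were seen. The members and lists were chosen with earlier results of these data known. The model was tested on simulated counts in which few genes changed, equally in both directions. That test does not cover comparisons in which many genes are called, such as those of the overexpressors at 44 DAS. Alternatives were DESeq2 1.42.0, other filters, scaling by library size, other sets of libraries in the fit, a replicate block and leaving out each library of the groups compared. Sequences and positions come from RefSeq (TAIR10.1), in which all 39 genes were matched by locus.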

Additional observations from a re-analysis of the deposited data

Results flagged for a closer look

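The difference from Col-0 changed between 30 and 44 DAS, by edgeR's test of the change itself, for 7 genes in *slim1-cr*, 35 in *35S::SLIM1 #17* and 36 in *35S::SLIM1 #25*. Of all genes 4.35% were called higher in *slim1-cr*, 15.1% lower in *#17* and 18.5% lower in *#25*. Leaving out a library gave 0 to 20, 20 to 37 and 31 to 37 calls. In *slim1-cr* PSRP3 changed by 1.08 on the log2 scale. In *#17* the changes were -1.73 for PRPL15, -1.52 for PRPL34, -1.41 for PRPL21, -1.62 for PRPS21, -1.42 for PRPS6 and -1.15 for PSRP1. In *#25* they were -2.18 for PRPL15, -1.86 for PRPL34, -1.62 for PRPL21, -1.88 for PRPS21, -1.48 for PRPS6 and -2.19 for PSRP1.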

How the results depend on the processing

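Counts of called genes stayed within 1.5 times of the main count in 150 of 184 cases, fits that left out a library not included. A count of 0 in both fits was taken as within. With DESeq2 there were 2 in *slim1-cr*, 1 in *#17*, 6 in *#25* and 1 in *EV* against Col-0 and 1 for *#25* against *#17* at 30 DAS, 22 in *#17* and 1 for *#25* against *#17* at 37 DAS, 1 for *slim1-cr* between 30 and 37 DAS, and 13 for its change between 30 and 44 DAS. With *EV* in place of Col-0 there were 1, 1 and 0 in *slim1-cr*, *#17* and *#25*, and PRPL12-A in *#25* turned to 0.037. With all 39 libraries in one fit there were 0 in *#25* at 30 DAS, and 36 in *#17* and 14 for *#25* against *#17* at 37 DAS. With only the groups compared there were 11 in *#25* and 1 for *#25* against *#17* at 30 DAS, 0 in *#17* at 37 DAS, 0 in *slim1-cr* at 44 DAS, 23 for *#17* between 37 and 44 DAS, 25 for *#25* between 30 and 37 DAS and 0 for the change of *slim1-cr*. Over all genes these fits called 12 for *slim1-cr* at 44 DAS and 0 for its change, against 2087 and 1433 in the main fits. With library size alone there were 1 in *slim1-cr* and 0 in *#25* at 30 DAS, 20 in *#17* at 37 DAS, 17 for Col-0 and 26 for *#25* between 30 and 37 DAS and 13 for *slim1-cr* between 37 and 44 DAS. That scaling shifted the median of all genes by -0.21 to 0.19, and the share of higher among all calls at 44 DAS was 67.7% in *#17* and 67.7% in *#25*, against 49.1% and 49.6% with TMM, while the medians of the 39 genes kept their direction. Without a filter there were 1 in *#25* at 30 DAS and 2 for the change of *slim1-cr*, and with a stricter filter 6 in *#17* at 37 DAS.

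Leaving out a library gave 0 to 5 calls in *slim1-cr* and 0 to 1 in *#25* at 30 DAS, 0 to 38 in *#17* and 0 to 38 for *#25* against *#17* at 37 DAS, 0 to 39 in *slim1-cr*, 37 to 37 in *#17* and 37 to 39 in *#25* at 44 DAS, 11 to 25 and 11 to 30 for the steps of Col-0, 0 to 2 and 2 to 9 for *slim1-cr*, 29 to 39 for the second step of *#17*, 1 to 26 for the first step of *#25*, and 0 to 20, 20 to 37 and 31 to 37 for the changes of *slim1-cr*, *#17* and *#25*. Over all genes the calls without a library ran from 17 to 6257 for *slim1-cr* at 44 DAS and from 4937 to 8983 for *#17* at 37 DAS. The span of large minus small was 0.17 to 0.20 without a library, 0.21 from summed CPM, 0.13 from medians and 0.15 without PSRP1. The replicate numbers were not taken to pair the libraries, since 1 of 30 pairs of groups had every correlation over 0.1. That rule cannot exclude pairing within a series. The pair was Col-0 at 37 and 44 DAS, with correlations of 0.34, 0.21 and 0.31, and those of Col-0 at 30 and 37 DAS were 0.29, 0.24 and 0.05. With the replicate block there were 0 in *#25* at 30 DAS, 6 in *#17* at 37 DAS and 11 for the change of *slim1-cr*. Where no value shows it, the cause was not tested.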
